A study of Mus musculus with 12 samples.

Results

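The RUNX genes of the mouse, their shared partner Cbfb and the ETO-family genes were followed as 7 genes in RNA-seq data of NPM-ALK-driven T-cell lymphoma and thymus. The members were chosen by symbol: Runx1, Runx2, Runx3, Cbfb, Runx1t1, Cbfa2t2 and Cbfa2t3, 7 of the 50600 gene identifiers counted. All 7 were found under 1 identifier each, and all 7 passed the filter on low counts that left 16052 genes for testing.

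RUNX proteins are transcription factors that bind DNA through a Runt domain. CBFB binds no DNA itself and forms a heterodimer with each of them that raises their affinity for DNA and their stability. Depending on partner proteins, RUNX factors activate or silence genes. In the thymus RUNX1 acts from the earliest progenitors through the stages with both CD4 and CD8, RUNX3 silences Cd4 and activates cytotoxic genes in the CD8 lineage, and RUNX2 is best known as the master regulator of bone formation. The ETO family, encoded by Runx1t1, Cbfa2t2 and Cbfa2t3, holds corepressors without a Runt domain that bring NCOR and histone deacetylases to other factors. RUNX1T1 and CBFA2T3 are known in human leukemia as fusion partners of RUNX1.

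RNA was sequenced from 12 mice, 3 in each of 4 groups. The Ctrl group held thymocytes of mice with the genotype DNMT1 fl/fl and no Cre, aged 20 to 25 wk. The KO group held thymocytes of DNMT1 fl/fl CD4-CRE mice aged 20 to 21 wk, in which Cre driven by Cd4 sequences deletes the maintenance DNA methyltransferase gene in T cells. The ALK group held T cell lymphoma cells of NPM-ALK+ mice aged 22 to 31 wk. Their transgene is a human fusion oncogene driven by the Cd4 enhancer and promoter, and their labels name no floxed allele. The ALKKO group held thymocytes of mice with both NPM-ALK+ and DNMT1 fl/fl CD4-CRE, aged 19 to 25 wk. All animals were male but 1, the second KO mouse (KO2). Animals had a mixed C57Bl/6xSV/129 background. In this design lymphoma cells and the NPM-ALK transgene with intact Dnmt1 cannot be told apart, because every NPM-ALK+ sample without the deletion came from a tumor.

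Each library had from 12473857 to 18864327 reads on genes. Levels are in CPM, a gene's reads in proportion to all reads on genes of the library after TMM scaling, and 3 counts, taken as the floor, equal 0.159 to 0.2405 CPM. Dnmt1 was at 400 to 487 CPM in Ctrl, 379 to 788 in ALK, 206 to 244 in KO and 205 to 244 in ALKKO. Reads on Alk stood at 34.9 to 55.0 CPM in the 6 NPM-ALK+ libraries and at 0.107 to 0.431 in the other 6. In edgeR Alk passed in each comparison across that divide. The log2 difference of Dnmt1 in KO against Ctrl was -0.95, with an unadjusted p of 0.00172 and an adjusted p of 0.787 in edgeR. A pair of libraries stood apart: KO2 held a summed B-cell marker level of 1835 CPM against 2.27 to 81.6 in the other 11 libraries, and the third KO mouse (KO3) held 4828 CPM of heart muscle markers against at most 20.0 elsewhere. KO2 also had the lowest summed level of double-positive thymocyte markers among thymus libraries, 2487 CPM against 5965 to 7833 in the other 8. T-cell markers were present in every library, with sums of 3181 to 4424 CPM in ALK, 6365 to 8001 in Ctrl, 3060 to 6772 in KO and 5683 to 6545 in ALKKO, but Cd5, a defining surface protein of T cells, stood at 0.786 to 2.22 CPM in ALK. Rag1 was listed at 0 in all 12 libraries. Reads with several alignments are in no gene's count. Their entries made up 48.4% to 51.8% of all entries of the counting in ALK and 39.2% to 45.6% elsewhere. Entries ambiguous between genes made up 1.38% to 1.60% and 2.0% to 2.83%. Shares of entries need not equal shares of reads. The part of these differences in the ALK values was not tested. These are bulk samples, so fewer cells of a type and less RNA per cell cannot be told apart.

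The RUNX genes share a sequence feature that their expression values did not use. Each RUNX gene is known to be transcribed from a distal and a proximal promoter. RefSeq promoter windows on GRCm38.p6, from 250 bases before to 50 bases after a start, were available for 6 of the 7 genes in 9 windows. The core letters of the RUNX binding motif, ACCACA or the reverse complement TGTGGT, stood in 3 of these 9 windows, the distal windows of Runx1 and Runx3 and the window of Runx2, and in 16.8% of all 32851 windows. In all 3 the letters stood as a pair, ACCACANNACCACA, with 2 bases between the copies, and Runx2 held a further copy 80 bases before its start. Only 7 of the 32851 windows (0.0213%) held such a pair on either strand, so the RUNX genes supplied 3 of 7. The stretches of 30 bases around each pair are shown because they are the part of the family's promoters that is alike, with the motif letters in capitals and each read 5′ to 3′ on the gene's strand. They lie at chr16:92826025-92826054 on the minus strand (Runx1), chr17:44814583-44814612 on the minus strand (Runx2) and chr4:135120503-135120532 on the plus strand (Runx3).

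Runx1: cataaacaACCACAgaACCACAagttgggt

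Runx2: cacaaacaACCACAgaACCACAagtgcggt

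Runx3: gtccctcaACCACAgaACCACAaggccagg

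The first copy began 29 bases into the transcript in Runx1 and 24 in Runx2, counting the start as base 1, and 134 bases before the start in Runx3. The search was chosen after the windows were seen, and a match of letters is a description and not a shown binding site. The windows of Cbfb, Cbfa2t2 and Cbfa2t3 and the proximal windows of Runx1 and Runx3 held neither form of the core letters. CpG dinucleotides, the sites that DNMT1 keeps methylated, numbered 2 in the distal window of Runx1 and 35 in the proximal one, 8 and 45 in those of Runx3, and 2 in the window of Runx2, against a median of 7 over all windows. The other genes had 30 (Cbfb), 51 (Cbfa2t2), and 10 and 53 (Cbfa2t3, upstream and downstream start). The counts sum all transcripts of a gene, so use of either promoter was not measured.

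Runx1 was the member that rose in lymphoma cells. The gene (ENSMUSG00000022952.17; chr16:92601466-92826149, minus strand, GRCm38) encodes the RUNX factor required for blood stem cells and early T cells. In Ctrl its level was 172, 164 and 144 CPM, in KO 176, 108 and 146, in ALK 687, 643 and 363, and in ALKKO 178, 151 and 189. The 3 ALK libraries were the highest of the 12, and the other groups overlapped one another. The mean was 565 ± 176 CPM in ALK (SD, n = 3) and 160 ± 14.8 in Ctrl, a 3.53-fold difference. The log2 fold change was 1.82 (SE 0.252), with an adjusted p of 0.00107 in edgeR's quasi-likelihood test over all genes. Against KO it was 1.98 (SE 0.253, adjusted p 0.000683 in edgeR), and against ALKKO 1.71 (SE 0.251, adjusted p 0.00143 in edgeR). The 3 comparisons share the ALK libraries. An exact two-sided permutation test of 3 against 3 cannot go below p = 0.1, the value reached in each of them. Among ALK libraries the third mouse (ALK3), aged 31 wk, was lowest, and without it the log2 fold change against Ctrl was 2.04. It was 1.66 without ALK1 and 1.70 without ALK2.

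**Figure D1:**
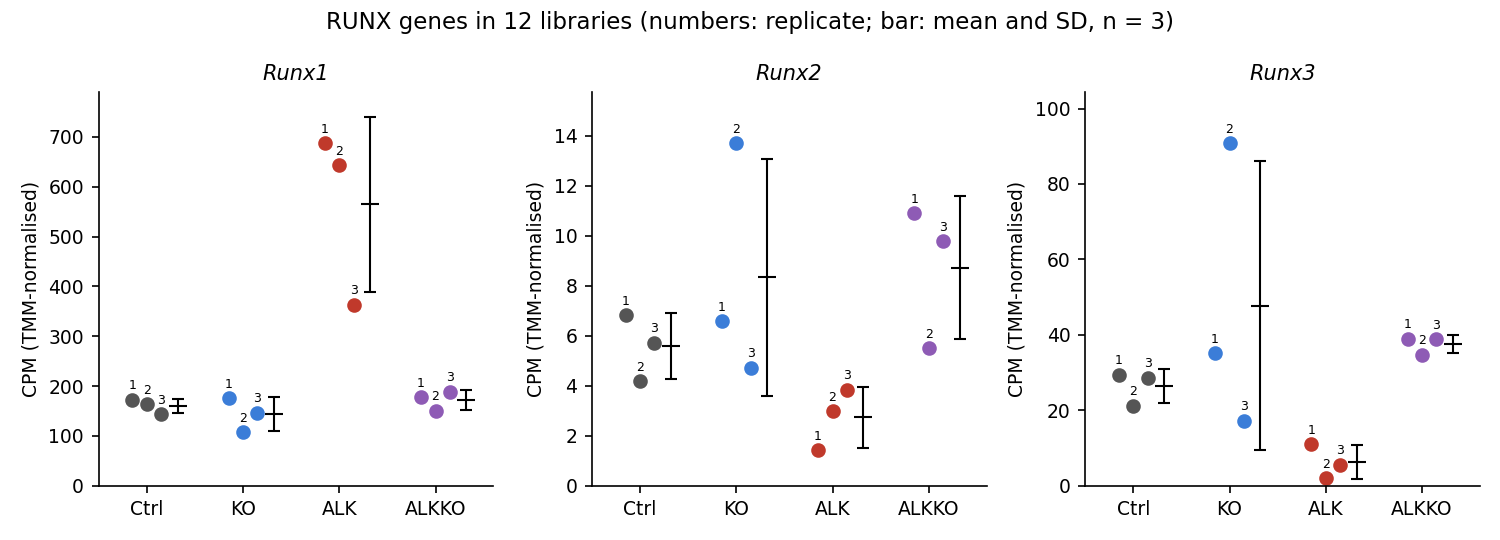
CPM of Runx1, Runx2 and Runx3 (y axes, each from 0) in the 12 libraries by group, with points numbered by replicate and the mean with SD (n = 3) beside them. The 3 ALK libraries lie above all others for Runx1, at 363 to 687 CPM, and below all others for Runx2 and Runx3, and KO2 is the highest library for Runx2 and Runx3.

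Runx3 was lower in lymphoma cells. This gene (ENSMUSG00000070691.10; chr4:135120652-135177990, plus strand) encodes the RUNX factor of CD8 T cells. Its level was 29.4, 21.2 and 28.6 CPM in Ctrl and 11.02, 2.01 and 5.55 in ALK. In KO it was 35.2, 90.8 and 17.2, and in ALKKO 38.9, 34.7 and 38.9. No ALK library reached the lowest library of any other group, and the 90.8 CPM of KO2 stood far above all else. The mean fell from 26.4 ± 4.52 CPM in Ctrl to 6.19 ± 4.54 in ALK (SD, n = 3), a 4.26-fold difference. On the log2 scale Runx3 fell by 2.08 in ALK against Ctrl (SE 0.633, adjusted p 0.0318 in edgeR). The call was lost when any Ctrl library or ALK2 or ALK3 was left out, with adjusted p in edgeR of 0.0808 without Ctrl1, 0.0548 without Ctrl2, 0.0794 without Ctrl3, 0.0757 without ALK2 and 0.0692 without ALK3, while the log2 difference stayed between -1.69 and -2.80 over all alternatives. Runx3 fell by 2.94 against KO (SE 0.653, adjusted p 0.00773 in edgeR) and by 2.59 against ALKKO (SE 0.644, adjusted p 0.0144 in edgeR). Leaving out KO2 changed the value against KO to -2.10 (adjusted p 0.0188 in edgeR).

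Runx2, whose product directs bone formation, had the lowest CPM of the RUNX genes in 11 of 12 libraries, ALK2 being the exception (ENSMUSG00000039153.16; chr17:44495987-44814797, minus strand). Its level was 6.82, 4.18 and 5.71 CPM in Ctrl, 6.57, 13.7 and 4.72 in KO, 1.41, 2.97 and 3.83 in ALK and 10.9, 5.50 and 9.77 in ALKKO. All 3 ALK libraries lay below every other library, with 21 to 49 reads each. Against Ctrl the log2 difference was -1.03 (SE 0.509, 95% interval -2.15 to 0.099) and did not pass the test (adjusted p 0.15 in edgeR). Runx2 fell by 1.67 against ALKKO (SE 0.515, adjusted p 0.0347 in edgeR) and by 1.60 against KO (SE 0.515, adjusted p 0.0351 in edgeR). Without KO2, where the gene was highest, the difference against KO was -1.08 and no longer passed (adjusted p 0.118 in edgeR). That call was also lost without Ctrl1 (0.050001), Ctrl3 (0.0524), ALK1 (0.0828), ALK2 (0.0719) or ALKKO3 (0.0522), each an adjusted p in edgeR. It was lost with sex (-1.05, adjusted p 0.126 in edgeR) or age (adjusted p 0.0529 in edgeR) as a covariate. KO2 was the only female, so the sex term stands for that library. Without KO2 and KO3 together the difference against KO was -1.28. The call against ALKKO was lost without Ctrl1 (0.050022), Ctrl3 (0.0541), ALK1 (0.0801), ALK2 (0.0731), ALKKO1 (0.0991) or ALKKO3 (0.0911), and with only the 2 groups in the fit (0.0761). An antisense RNA, Runx2os1, shares 519 exonic bases with the gene and collected 57 reads over the 12 libraries. The strand setting of the counting is not given in the sources used here.

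Cbfb, the common partner of all RUNX proteins, was at a similar level in all groups (ENSMUSG00000031885.14; chr8:105170674-105217989, plus strand). Its level was 206, 227 and 212 CPM in Ctrl, 201, 198 and 180 in KO, 211, 278 and 208 in ALK and 183, 222 and 196 in ALKKO. Only ALK2, at 278 CPM, lay outside the range of 180 to 227 CPM of the other 11 libraries. The log2 difference of ALK from Ctrl was 0.11 (SE 0.138, adjusted p 0.565 in edgeR), with a 95% interval of -0.192 to 0.418. Against KO it was 0.27 (95% interval -0.037 to 0.573), with no overlap between the groups but an adjusted p of 0.155 in edgeR.

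The ETO-family gene Cbfa2t3 encodes a corepressor that joins the SCL/TAL1 complex in blood progenitors (ENSMUSG00000006362.16; chr8:122625141-122699109, minus strand). Its level was 85.8, 71.8 and 96.2 CPM in Ctrl, 83.8, 85.1 and 76.7 in KO, 64.6, 66.0 and 10.6 in ALK and 69.3, 61.0 and 82.8 in ALKKO. ALK3 alone was far below the other 11 libraries, which spanned 61.0 to 96.2. The log2 difference of ALK from Ctrl was -0.85 (SE 0.489, adjusted p 0.212 in edgeR) and -0.39 without ALK3 (adjusted p 0.0969). The paralog Cbfa2t2 (ENSMUSG00000038533.15; chr2:154436481-154539356, plus strand), also a corepressor, was at 54.5 to 58.2 CPM in Ctrl, 38.8 to 58.5 in KO, 49.3 to 77.5 in ALK and 50.2 to 53.0 in ALKKO. Its log2 difference of ALK from Ctrl was 0.16, with a 95% interval of -0.252 to 0.581 that covers 0.

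Runx1t1 (ENSMUSG00000006586.15; chr4:13743436-13893649, plus strand), the founding member of the ETO family, was near the floor of detection. It was counted with 4, 3 and 13 reads in Ctrl, 7, 14 and 11 in KO, 2, 4 and 2 in ALK and 4, 16 and 6 in ALKKO, at most 1.21 CPM. KO2 had the highest level and ALK1 the lowest, at 0.134 CPM. No comparison passed the test, that with ALK against KO giving an unadjusted p of 0.0448 and an adjusted p of 0.102 in edgeR, and at this depth no difference between ALK and Ctrl was detectable (95% interval of the log2 difference -2.55 to 1.05).

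**Figure D2:**
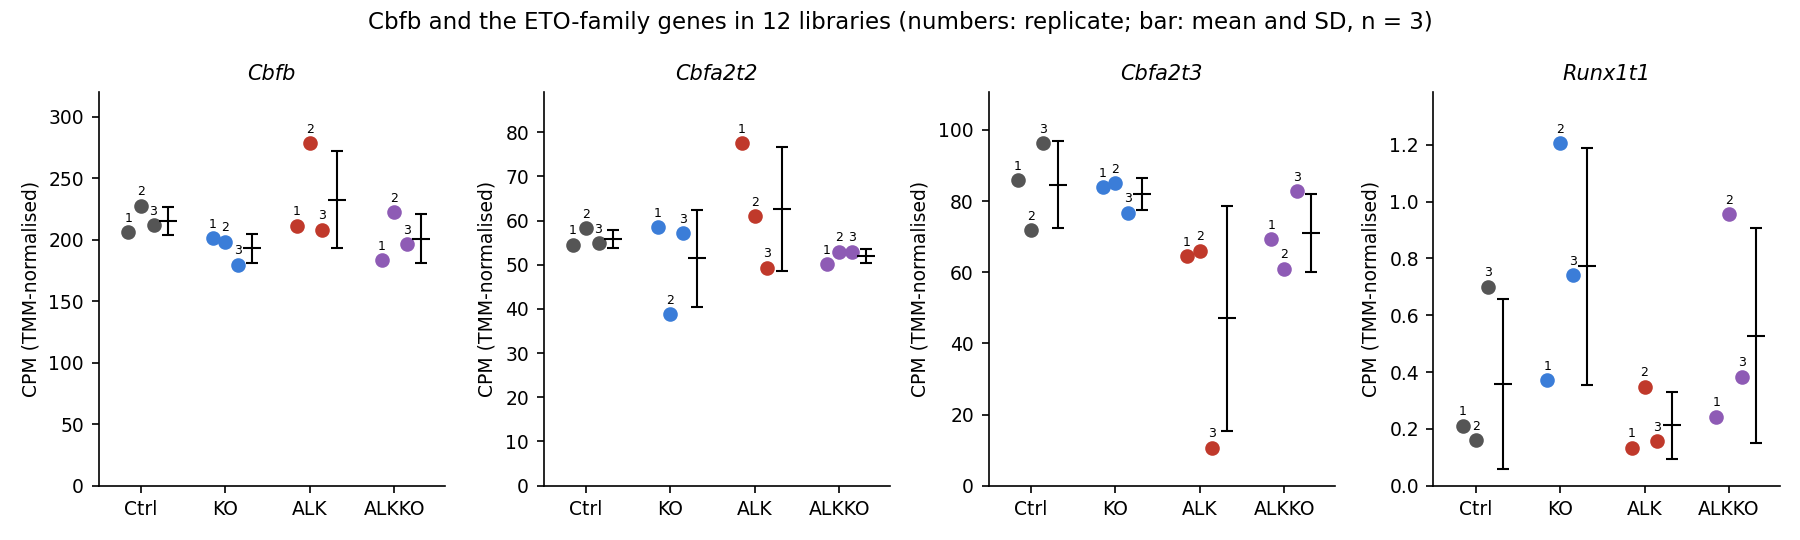
CPM of Cbfb, Cbfa2t2, Cbfa2t3 and Runx1t1 (y axes, each from 0) in the 12 libraries by group, with points numbered by replicate and the mean with SD (n = 3) beside them. ALK overlaps Ctrl for Cbfb and Cbfa2t2, KO lies below Ctrl for Cbfb, ALKKO lies below Ctrl for Cbfa2t2, ALK3 is low for Cbfa2t3 at 10.6 CPM, and Runx1t1 stays at or below 1.21 CPM.

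Over the 7 members, 2 were called in ALK against Ctrl, a call being an adjusted p below 0.05 with more than 1 log2 unit of difference, against 20.4% of all genes tested. They were 1 of 7 higher (8.41% of all genes) and 1 of 7 lower (12%). In ALK against ALKKO 3 of 7 were called (19.6% of all genes), 1 higher (7.03%) and 2 lower (12.6%). In ALK against KO again 3 of 7 were called (23.6% of all genes), 1 higher (7.94%) and 2 lower (15.7%). In both the higher gene was Runx1 and the lower ones were Runx2 and Runx3. Values of ALK and Ctrl did not overlap for 4 of the 7 members, Runx1, Runx2, Runx3 and Cbfa2t3, where 46.4% of all genes tested did not overlap. ALK did not overlap ALKKO for 3 of 7 (43.2% of all genes) or KO for 6 of 7, all but Cbfa2t2 (38.2% of all genes). The median log2 difference of the members was -0.75 in ALK against Ctrl, beside 0.05 over all genes tested. That median is the value of Runx1t1, with 2 to 4 reads in ALK and 3 to 13 in Ctrl. Members differed in both directions, with Runx1, Cbfb and Cbfa2t2 above 0, so the median shows no shared fall.

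In thymocytes none of the 7 genes passed. Called members numbered 0 of 7 in KO against Ctrl (0.0187% of all genes), 0 of 7 in ALKKO against Ctrl (0.181%) and 0 of 7 in ALKKO against KO (0.00623%). At an unadjusted p under 0.05 in edgeR's fit of all 12 libraries the counts were also 0 of 7 in each, and DESeq2's Wald test called 0 of 7 in each. Groups did not overlap for 1 of 7 members in KO against Ctrl, Cbfb (12.4% of all genes), for 2 of 7 in ALKKO against Ctrl, Runx3 and Cbfa2t2 (17.5%), and for 0 of 7 in ALKKO against KO (6.34%). For Runx1 the 95% interval of the log2 difference was -0.700 to 0.382 in KO against Ctrl and -0.433 to 0.648 in ALKKO against Ctrl. Runx3 in ALKKO, at 34.7 to 38.9 CPM, stood above Ctrl at 21.2 to 29.4. The log2 difference was 0.51 (SE 0.603, 95% interval -0.828 to 1.84, adjusted p 0.9998 in edgeR). That SE rests on a spread shared by all 4 groups. With only ALKKO and Ctrl in the fit the SE was 0.151, with an unadjusted p of 0.0105 and an adjusted p of 0.242 in edgeR. In the fit of all 12 libraries the log2 difference of Runx3 in KO against Ctrl was 0.85. It rested on KO2, without which it was -0.0091. Runx2 differed by 0.58 (95% interval -0.527 to 1.68) in KO and by 0.65 (95% interval -0.457 to 1.75) in ALKKO, both against Ctrl.

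**Figure D3:**
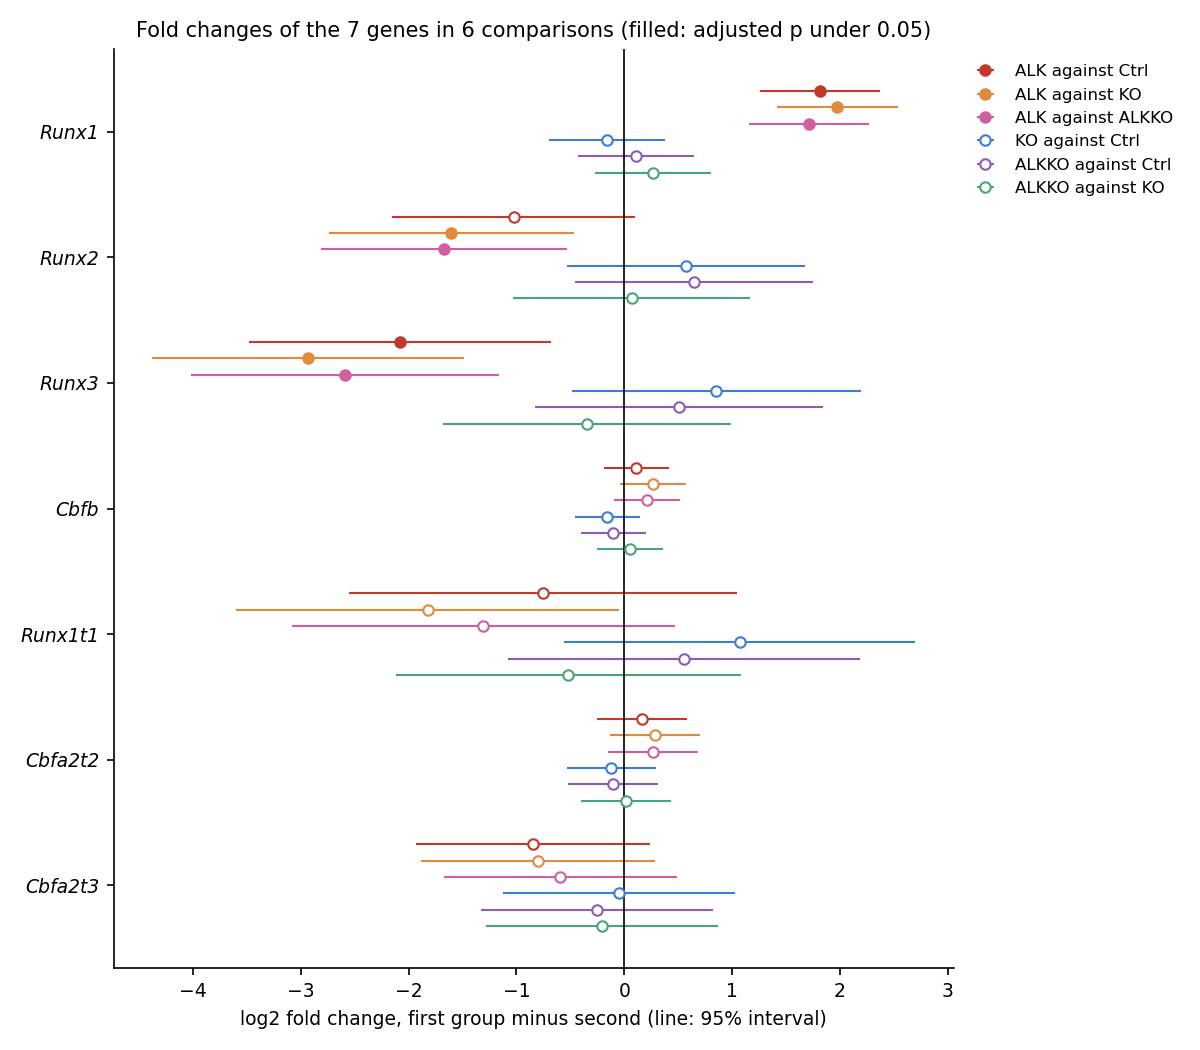
The log2 fold change (x axis) of the 7 genes (rows) in 6 comparisons (colours), with points filled where the adjusted p was under 0.05 and lines for the 95% interval. Filled points appear only in the 3 comparisons with ALK, above 0 for Runx1, at 1.71 to 1.98, and below 0 for Runx2 and Runx3.

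Whether the difference with NPM-ALK varied with the Dnmt1 deletion was tested as an interaction, the ALK minus Ctrl difference less the ALKKO minus KO difference. It passed for Runx1 among the 7 genes, where 10.3% of all genes passed. The Runx1 difference was 1.82 without the deletion and 0.27 with it, and the interaction was 1.55 on the log2 scale (SE 0.347, adjusted p 0.0228 in edgeR). It stayed between 1.35 and 1.81 over the alternatives, but the adjusted p in edgeR rose to between 0.052 and 0.0628 on leaving out Ctrl1, Ctrl2, Ctrl3, KO3, ALK2, ALKKO1, ALKKO2 or ALKKO3. For Runx3 the interaction was -1.74 (95% interval -3.65 to 0.175, adjusted p 0.219 in edgeR) and for Runx2 -1.10 (95% interval -2.67 to 0.473, adjusted p 0.345 in edgeR). Since ALK is tumor and ALKKO thymus, tissue and deletion cannot be told apart here.

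The composition of RUNX RNA in each library followed from these levels. To compare genes, CPM were divided by the length of each gene's exons joined together, in kilobases. Per length, Runx1 made up 68.3%, 74.3% and 65.3% of summed RUNX RNA in Ctrl and 96.0%, 98.6% and 95.1% in ALK. In KO it was 65.3%, 31.3% and 75.4%, and in ALKKO 62.1%, 62.4% and 63.9%. Runx1 was thus the main RUNX RNA in 11 of 12 libraries, and in KO2 Runx3 was, with 63.3%. Runx3 made up 27.4% ± 4.09 in Ctrl and 2.64% ± 1.65 in ALK (SD, n = 3), and Runx2 3.26% ± 0.596 and 0.751% ± 0.560. The summed RUNX level was 48.5 ± 14.7 CPM per kb in ALK, 19.2 ± 1.53 in Ctrl, 22.4 ± 6.25 in KO and 22.8 ± 2.40 in ALKKO. Because Cbfb stayed level, its ratio to summed RUNX RNA was 1.46 ± 0.431 in ALK, 3.24 ± 0.378 in Ctrl, 2.59 ± 0.605 in KO and 2.56 ± 0.537 in ALKKO. Each ALK library, at 1.02 to 1.88, was below all 9 thymus libraries, at 1.99 to 3.56. With the longest transcript as the length the mean ratio was 0.867 in ALK and 2.14 in Ctrl, so its size depends on the length used.

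**Figure D4:**
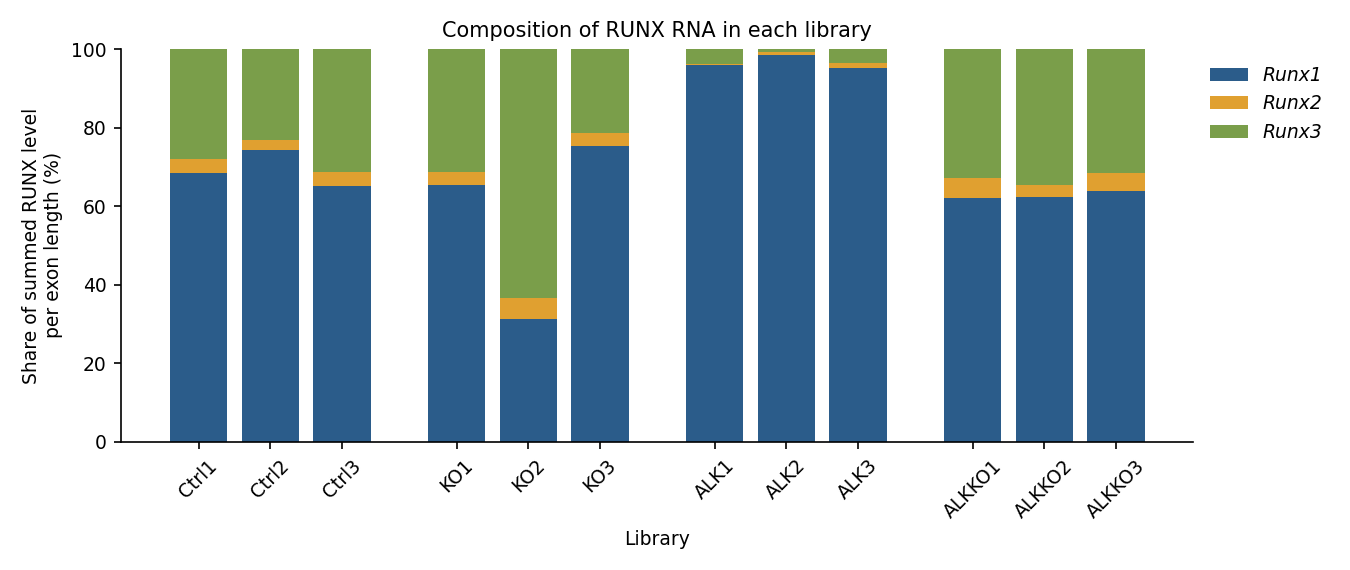
Share of summed RUNX RNA per exon length (y axis, percent) that was Runx1, Runx2 and Runx3 in each of the 12 libraries. Runx1 fills 95.1% to 98.6% of each ALK bar, and KO2 is the library in which Runx3, at 63.3%, exceeds Runx1.

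In order of level per exon length, Cbfb came first and Runx1 second by group mean. In KO Runx1, Cbfa2t3 and Runx3 each overlapped the next in order, and in KO2 Runx3 exceeded Runx1. In Ctrl the means were 61.8 CPM per kb for Cbfb, 13.3 for Runx1, 10.1 for Cbfa2t3, 6.46 for Cbfa2t2, 5.27 for Runx3, 0.630 for Runx2 and 0.0449 for Runx1t1, and no neighbours overlapped. In ALK Runx1 stood at 47.0 ± 14.6 CPM per kb next to Cbfb at 66.8 ± 11.4 (SD, n = 3), and Runx3 at 1.24 ± 0.907. There Cbfa2t2, Cbfa2t3 and Runx3 each overlapped the next in order, and Runx2 did not overlap Runx1t1. With the longest transcript as the length, Runx1 came before Cbfb in ALK (96.3 against 80.5 CPM per kb), with overlapping libraries. With that length Cbfa2t3 overlapped Cbfa2t2 in Ctrl, and Runx3 came before Cbfa2t3 by mean in KO and ALKKO, with overlap. Per exon length Runx3 exceeded Cbfa2t2 in ALKKO, at 7.50 ± 0.487 against 6.02 ± 0.186 CPM per kb, with no overlap. Within the ETO family Cbfa2t3 made up 60.6% ± 4.21 in Ctrl, 62.0% ± 5.83 in KO, 58.0% ± 3.91 in ALKKO and 39.0% ± 18.3 in ALK, where ALK3 had 18.2%. With the longest transcript as the length the mean share was 54.3% in Ctrl, 55.8% in KO, 51.6% in ALKKO and 33.5% in ALK. It was then 49.4% in Ctrl2 and 47.4% in ALKKO2, below Cbfa2t2, so the share depends on the length used.

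The genes whose levels moved most like each RUNX gene were named by the smallest root-mean-square difference in mean-centred log2(CPM + 1) over the 12 libraries, among 13281 protein-coding genes. For Runx1 these were Slc36a4 (0.208 log2 units), which encodes an amino acid transporter, Tada2a (0.222), a subunit of histone acetyltransferase complexes, and Xylb (0.224), a xylulose kinase. Their means were 79.1, 64.4 and 16.4 CPM in ALK and 23.1, 19.0 and 4.36 in Ctrl. For Runx2 they were Birc3 (0.207), a regulator of NF-kappaB signalling, the inhibitory receptor gene Lag3 (0.232) and P2ry14 (0.232), a nucleotide sugar receptor. For Runx3 they were Nfatc2 (0.310), a transcription factor of T-cell receptor signalling, Epsti1 (0.326), an interferon-induced gene, and H2-DMa (0.339), which loads peptides on MHC class II. With a pseudocount of 0.5 in place of 1, Gng2 took the place of P2ry14 for Runx2, and Mycl that of H2-DMa for Runx3. The 3 genes most like Runx3 differed from it more than those of Runx1 and Runx2 did from theirs.

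Corepressors and coactivators of RUNX factors were counted as lists that were chosen with earlier results of these data known. Their counts beside the shares of all genes are therefore descriptions. Of 6 Groucho/TLE genes, whose products silence genes with RUNX proteins, 0 rose and 2 fell in ALK against Ctrl at an adjusted p under 0.05 in edgeR, where 14.8% of all genes rose and 14.7% fell. Tle4 was at 45.3, 44.1 and 37.1 CPM in Ctrl and 1.68, 8.56 and 15.9 in ALK, and fell by 2.28 on the log2 scale (SE 0.602, adjusted p 0.0183 in edgeR). Leaving out ALK2 left 1 of the 6. Tle5 (Aes in the annotation), a short family member that lacks the repressor tail, was at 677 to 742 CPM in Ctrl and 180 to 411 in ALK, and fell by 1.22 (adjusted p 0.00788 in edgeR). The 6 had a median log2 difference of -1.30, against 0.05 over all genes. Of 12 coactivators and modifiers, 3 rose and 0 fell, with a median of 0.07. Hipk2, a kinase that phosphorylates RUNX1 and its coactivators, rose from 13.5 to 32.3 CPM in Ctrl to 62.8 to 273 in ALK (log2 fold change 3.10, adjusted p 0.00283 in edgeR). The arginine methyltransferase genes Prmt1 and Carm1 rose by log2 values of 1.11 and 1.04. The other 9, among them the acetyltransferase genes Ep300, Crebbp and Kat6a, did not pass. The count of lower genes among these 12 coactivators and modifiers, 0 with all libraries, was 2 without ALK1 and 1 without ALK3.

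Of 10 genes of the ETO corepressor complexes 0 rose and 1 fell, Tbl1xr1, an NCOR complex subunit, from 159 to 177 CPM in Ctrl to 124 to 139 in ALK (log2 difference -0.33, adjusted p 0.0355 in edgeR), and the median was -0.01. Of 14 DNA-binding partners of RUNX and ETO factors 1 rose and 1 fell, with a median of -0.24. For both lists the comparison was ALK against Ctrl, where 14.8% of all genes rose and 14.7% fell. Ets1, which binds beside RUNX1 on T-cell enhancers, was at 1609 to 1646 CPM in Ctrl and 666 to 877 in ALK and fell by 1.04 (SE 0.192, adjusted p 0.00352 in edgeR). Tcf3, which encodes E proteins, rose by 0.51 (adjusted p 0.0338 in edgeR). The 1 lower gene of the complexes was lost without Ctrl1, Ctrl2, ALK3 or ALKKO3, and the 1 higher partner without Ctrl1, Ctrl2, Ctrl3, KO1, KO3, ALK3, ALKKO1 or ALKKO3.

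Known target genes were also counted, in lists chosen with the same knowledge. Of 15 T-cell genes that RUNX factors are known to activate, 12 were tested, 0 rose and 8 fell in ALK against Ctrl, with a median log2 difference of -3.42. Of all genes tested 14.8% rose and 14.7% fell in that comparison. Cd8b1, the CD8 beta chain, was at 1346 to 1693 CPM in Ctrl and 7.25 to 28.8 in ALK and fell by 6.31 (SE 0.562, adjusted p 0.000133 in edgeR). Il2rb, an interleukin receptor chain, was at 41.7 to 50.1 CPM in Ctrl and 0.960 to 3.70 in ALK and fell by 4.33 (adjusted p 0.00181 in edgeR). Foxp3, the factor of regulatory T cells, had 68 to 118 reads in Ctrl and 1 to 4 in ALK, and Gzmb, a cytotoxic protease gene, 23 to 40 and 0 to 2. Cd8a, Itgae, Eomes and Trbc2 also fell, while Prf1, Il7r, Bcl11b and Trbc1 did not pass. KO2 was the highest library of the 12 for Foxp3 (28.0 CPM), Gzmb (4.74 CPM) and Il2rb (156 CPM), as for Runx3.

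Genes that RUNX factors silence were lower in the same samples. Of 3 such genes 2 were tested and both fell in ALK against Ctrl (14.7% of all genes). Cd4 was at 1287 to 1409 CPM in Ctrl and 27.5 to 116 in ALK and fell by 4.50 (SE 0.562, adjusted p 0.00065 in edgeR). Zbtb7b, which encodes the CD4-lineage factor ThPOK, was at 47.6 to 65.1 CPM in Ctrl and 3.29 to 12.2 in ALK and fell by 3.07 (adjusted p 0.00211 in edgeR). Of 9 skeletal RUNX2 targets 4 were tested and 3 rose (14.8% of all genes), with a median of 4.14. Runx2 itself was lower in all 3 ALK libraries but did not pass against Ctrl (adjusted p 0.15 in edgeR). The part of Runx2 in the values of these targets was not tested. Spp1, encoding osteopontin, was at 1.66 to 3.07 CPM in Ctrl and 56.3 to 222 in ALK (log2 fold change 5.75, adjusted p 0.000358 in edgeR). Col1a1, a collagen of bone and fibroblasts, was at 14.2 to 28.6 CPM in Ctrl and 243 to 702 in ALK (log2 fold change 4.26, adjusted p 0.00657 in edgeR). Alpl, alkaline phosphatase, was at 96.5 CPM in ALK1 but 5.33 and 3.99 in the others, against 1.5 to 3.02 in Ctrl (log2 fold change 4.02, adjusted p 0.029 in edgeR). Against ALKKO, where 13.4% of all genes rose and 14.7% fell in ALK, 0 rose and 7 fell of the T-cell genes activated by RUNX, and both silenced genes fell. In that comparison 3 coactivators rose, 2 TLE genes fell, and 3 skeletal targets rose and 1 fell, the collagenase gene Mmp13 (log2 difference -2.01). In thymocytes 60 list genes were tested, and 0 passed in KO against Ctrl (0.0187% of all genes), ALKKO against Ctrl (0.187%) and ALKKO against KO (0.00623%) in edgeR. At an unadjusted p under 0.05 these counts were 7, 2 and 4, and DESeq2 passed 0, 1 (Mmp13) and 0.

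**Figure D5:**
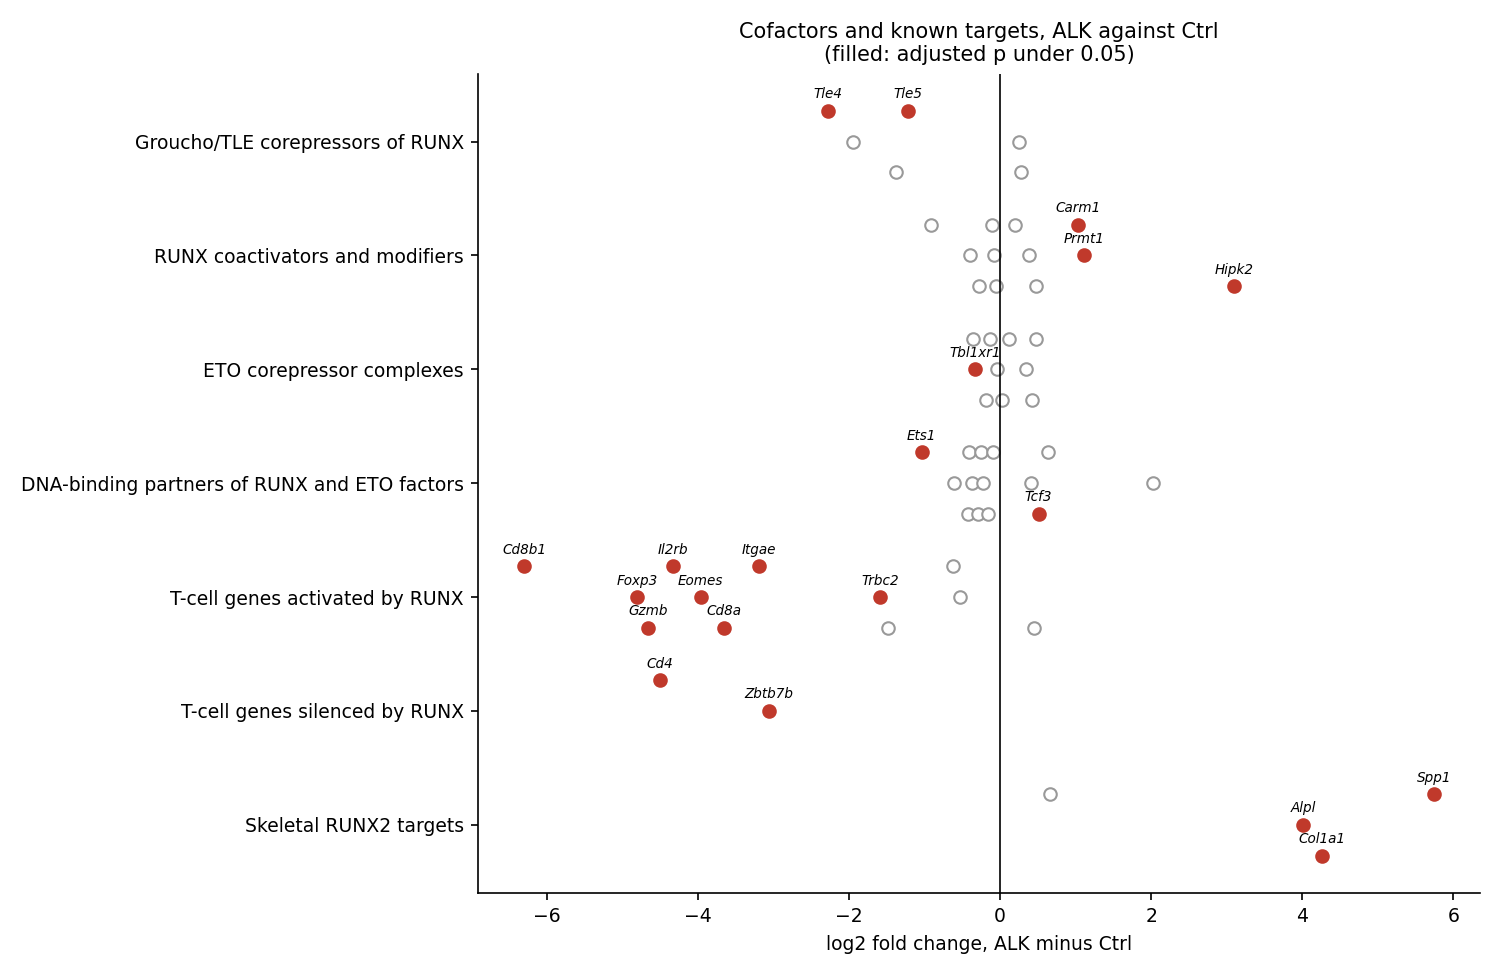
The log2 fold change of ALK against Ctrl (x axis) for each tested gene of 7 lists of RUNX and ETO cofactors and known targets (rows), with genes of adjusted p under 0.05 filled and named. The filled T-cell targets of both kinds lie below 0, with Cd8b1 lowest at -6.31, while 3 skeletal targets lie above 4.

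Markers of other cell types moved with the members in some libraries. In ALK, where Runx3 and Runx2 were lowest, the 5 B-cell markers summed to 2.27 to 8.76 CPM against 45.3 to 81.6 in Ctrl. Values of ALK and Ctrl did not overlap for 5 of 5, where 46.4% of all genes tested did not overlap. In edgeR 1 of the 5 passed, lower in ALK, and 4 did not pass. Double-positive thymocyte markers, Cd4, Cd8a, Cd8b1, Rag1, Rag2, Dntt and Ptcra, summed to 1534 to 3346 CPM in ALK and 6830 to 7833 in Ctrl, with no overlap of the sums. Of these 7 markers 6 were tested, and against Ctrl 4 fell (14.7% of all genes) and 2 did not pass. The list did not fall as a whole, since 1 marker rose and 4 fell against ALKKO, and likewise against KO. The NK and innate lymphoid markers summed to 42.1 to 109 CPM in ALK and 72.7 to 87.5 in Ctrl, and mature thymocyte markers to 188 to 925 and 364 to 459, in both cases with overlap. In KO2, where Runx3 and Runx2 were highest, mature thymocyte markers summed to 1216 CPM, myeloid markers to 2237, NK and innate lymphoid markers to 281, erythroid and megakaryocyte markers to 2355 and endothelial markers to 486, each the highest of the 12 libraries, as was the B-cell sum given above. The NK and innate lymphoid sum was at most 110.5 CPM in the other 11. Where Runx1 was high, epithelial and fibroblast markers summed to 1088 to 2416 CPM in ALK against 731 to 841 in Ctrl and 529 to 1198 in ALKKO. Within that list 4 of 10 markers rose against Ctrl (14.8% of all genes), Col1a1, Col1a2, Col3a1 and Pdgfrb, and 2 of 10 fell (14.7%), Krt8 and Foxn1. Foxn1, defining for thymic epithelium, was at 0.067 to 1.10 CPM in ALK. Myeloid markers summed to 203 to 792 CPM in ALK and 415 to 507 in Ctrl, erythroid and megakaryocyte markers to 28.8 to 722 and 377 to 570, and endothelial markers to 172 to 278 and 177 to 238, all with overlap. The highest ALK sums of these lists were in ALK3, where Runx1 and Cbfa2t3 were lowest among ALK libraries. ALK3 also had the highest mature thymocyte and NK sums in ALK, and the lowest double-positive and epithelial and fibroblast sums. Itgam was listed at 0 in all libraries. The part of these cells in the RUNX values was not tested.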

How the data were processed

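RNA of 12 mice was analysed, 3 per group, with groups, ages and sexes from the labels. Labelled ages (19 to 31 wk) differ from the age in the study's methods. Stranded poly(A) libraries were made, and the authors trimmed the single-end reads, aligned them with STAR to mm10 and deposited raw counts of reads per gene from HTSeq, without normalization. Reads with several alignments (39.2% to 51.8% of the entries of the counting, which need not equal the share of reads) are in no gene's count. Versions of STAR and HTSeq, the annotation release and the strand setting are not given in the sources used here. Of 50600 gene identifiers 50376 matched GENCODE M21, which gave symbols, positions and exon lengths. Reads on genes numbered 12473857 to 18864327 per library. Floors cover counting error only. No libraries of a group were alike within sampling noise.

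Tests on counts used edgeR 4.0.16 (R 4.3.3) with filterByExpr, TMM scaling (factors 0.913 to 1.06), 1 term per group over all 12 libraries, robust quasi-likelihood F tests and Benjamini-Hochberg adjustment over 16052 genes. Passing means an adjusted p under 0.05, and calling also more than 1 log2 unit of difference. Standard errors came from the F statistic and intervals from its degrees of freedom. Single genes were compared by exact two-sided permutation tests of CPM. Labels do not say whether animals shared litters or batches, so p-values measure the spread between these mice. The test was checked on simulated counts.

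The 7 members and the gene lists were chosen with earlier results of these data known. From each list at most 4 genes are named, those with the largest log2 fold change among genes that passed in ALK against Ctrl and averaged 1 CPM or more. Marker genes, Mmp13 and the list genes named without values were named after their values were seen. Promoter sequences are from RefSeq (GRCm38.p6), with no entry for Runx1t1. Alternatives were DESeq2 1.42.0, its size factors, other filters, 2 groups alone, the replicate number as a block, sex, age, no fold threshold, each library left out and, added after the data were seen, KO2 and KO3 left out together. The sex covariate stood for KO2 alone, the only female. Figures used Python 3.11.15, pandas 2.3.3 and matplotlib 3.10.9. Protein sequences were not used here.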

Additional observations from a re-analysis of the deposited data

Results flagged for a closer look

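The Runx1 difference with NPM-ALK varied with the Dnmt1 deletion by a test of the difference itself. ALK minus Ctrl less ALKKO minus KO was 1.55 on the log2 scale (SE 0.347, adjusted p 0.0228 in edgeR), from mean levels of 565 CPM in ALK, 160 in Ctrl, 172 in ALKKO and 143 in KO. Every ALK library was above every other library. ALK is lymphoma and the other groups are thymus, so tissue and deletion cannot be told apart. The adjusted p ranged from 0.000926 (DESeq2) to 0.0628 (edgeR without Ctrl1) over 20 alternatives, 9 of which did not pass.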

How the results depend on the processing

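Of 602 log2 values of single members under alternatives, 549 kept their direction and their side of the threshold. Runx1 in ALK against Ctrl, ALKKO and KO and Runx3 in ALK against ALKKO did so in all 21 alternatives each. The total includes values that had not passed and stayed so. Of the other values that passed, Runx3 in ALK kept its side in 14 of 21 against Ctrl and 20 of 21 against KO. Runx2 in ALK did in 13 of 21 against ALKKO and 10 of 21 against KO, and the Runx1 interaction in 11 of 20. Members called in ALK against Ctrl numbered 1 with the replicate block and 1 with age as a covariate in place of 2, since Runx3 missed the threshold (adjusted p 0.0515 and 0.0646 in edgeR), and 1 to 2 with each library left out. In ALK against KO 1 was called in place of 3 with only the 2 groups compared (Runx2 0.148, Runx3 0.0796), and 2 to 3 with each library left out, as in ALK against ALKKO. Members with an interaction numbered 0 to 1 with each library left out and 0 with KO2 and KO3 left out together. Called members in the thymus comparisons stayed at 0 to 0. The replicate block also took Runx2 in ALK against ALKKO to an adjusted p of 0.063 and against KO to 0.0688, and changed no other call. Deviations of same-numbered samples correlated at -0.106 to 0.426, above 0.1 in 5 of 18 pairs. Samples with different numbers were not compared, so whether replicate numbers pair the mice cannot be told from these values. Values that reversed had not passed: with each library left out, log2 differences in ALK against Ctrl ran from -0.057 to 0.18 for Cbfb, -1.28 to 0.17 for Runx1t1 and -0.014 to 0.30 for Cbfa2t2. They ran from -0.35 to 0.014 for Runx1 and -0.0091 to 1.24 for Runx3 in KO against Ctrl, and from -0.20 to 0.63 for Runx2 and -0.74 to 0.52 for Runx3 in ALKKO against KO. With sex as a covariate Runx1 (0.0103) and Runx3 (-0.0091) reversed in KO against Ctrl and Runx3 (0.52) in ALKKO against KO, and with age Runx2 (-0.0274) did in the latter. KO2 was the only female, so the sex term stands for that library and is no separate check. Leaving out KO2 gave near values for these 3 reversals with sex (0.0135, -0.0091 and 0.52). Without KO2 and KO3, chosen after seeing the data, Runx1 was 0.12 in KO against Ctrl and -0.018 in ALKKO against KO, and Runx3 0.10 in the latter. Causes were not tested. Of 294 list counts under alternatives 259 were within 1.5 times. Depth limits Runx1t1, at 2 to 16 reads.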
